A study of Mus musculus with 34 samples.

Results

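The angiopoietins and vascular growth factors are secreted proteins with which a tissue directs its blood and lymphatic vessels, and 10 genes were followed here, of 23109 in the RNA-Seq data. They were the angiopoietin ligands *Angpt1*, *Angpt2*, and *Angpt4*, their receptor *Tek*, the angiopoietin-like *Angptl2* and *Angptl4*, and the vascular endothelial growth factor genes *Vegfa*, *Vegfb*, *Vegfc*, and *Figf* (now called *Vegfd*). The genes were chosen by name, but partly from measured values, since *Angpt1* was picked for its low level in K36M cells treated with Rosi. That contrast is therefore given for *Angpt1* as a description only.

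RNA-Seq had been performed on immortalized brown preadipocytes, the precursors of brown fat cells, isolated from the interscapular brown fat of newborn mice (strain C57BL/6J) and made to divide indefinitely with SV40T. In the first experiment a retrovirus gave the cells FLAG-tagged histone H3.3, either wild-type (WT) or carrying the K36M mutation, which lowers H3K36 methylation, and they were collected at D0, D2, and D7 of adipogenesis. In the second, WT and K36M cells also carried ectopic PPARγ from a retrovirus and were collected sub-confluent after DMSO or Rosi (rosiglitazone, a PPARγ ligand). In the third, the cells carried a lentiviral control shRNA (Ctrl) or an shRNA against the H3K36 methyltransferase gene *Nsd2* (*Nsd2* KD) and were collected at D0 and D2. Every population shared the SV40T immortalization, and the labels name GR-flox/flox cells given a Vec or Cre retrovirus, without saying which was used, whereas the study's methods name WT mice. The induction medium contained insulin, T3, IBMX, dexamethasone, and indomethacin until D2, and insulin and T3 after that, so that D7 differs from D2 in both time and medium. The labels date the DMSO libraries to 0 h and the Rosi libraries to 24 h, whereas the study describes 24 h of treatment for both. Each population is a virus-infected pool or line with no second one beside it, and which of the *Nsd2* shRNAs was used is not given in the sources used here.

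There were 14 libraries, 1 for each condition, of 12213559 to 24365867 mapped reads. The authors deposited RPKM, that is, reads corrected for how long the transcript is and how deeply the library was sequenced, so that levels can be compared between genes per length. No difference has a replicate check, and no test was made. A gene was counted as up-regulated or down-regulated at over 2-fold, and each ratio has a 95% counting interval, which covers the sampling of reads between 2 libraries and nothing else. *Nsd2* itself stood at 19.9 RPKM in Ctrl cells at D0 and 29.0 at D2, and at 5.85 and 7.01 in *Nsd2* KD cells. The K36M transgene could not be checked in these values. Of 10 adipocyte marker genes, 8 reached 1 RPKM in WT cells at D2 and D7, whereas *Ucp1* and *Cidea*, which mark brown fat cells, stayed below 0.2 RPKM in all 14 libraries.

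Angiopoietins act through Tek (also called Tie2), a receptor kinase of endothelial cells. Angpt1, made by cells around the vessel, activates it and keeps vessels stable, whereas Angpt2 often opposes Angpt1. Vegfa drives the sprouting of blood vessels and Vegfc and Figf that of lymphatic vessels, and fat tissue makes these factors as it expands and gains blood supply. Angptl4 does not bind Tek and is known in fat for blocking lipoprotein lipase, and its gene is a classical PPAR target.

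RNA of several of these factors was plentiful in these cells, whereas that of *Tek* and of its own ligands was low. The median over the 14 libraries was 0.657 RPKM for *Angpt1*, 0.868 for *Angpt2*, and 1.34 for *Angpt4*. *Vegfa* was the highest of the 10 genes in 8 libraries, *Angptl4* in 5, and *Angptl2* in 1 (K36M at D7), and these 3 with *Vegfb* stood above 3 RPKM in all 14 libraries. *Tek* never exceeded 2.08 RPKM and reached 1 RPKM only in K36M cells at D7. The endothelial markers were near the floor with it. Of 12 markers, 9 (*Pecam1*, *Cdh5*, *Kdr*, *Tie1*, *Emcn*, *Vwf*, *Cldn5*, *Erg*, and *Esam*) were below 1 RPKM in every library, and their summed level of 4.30 to 42.6 RPKM came mostly from *Eng* and *Egfl7*. The defining marker *Cdh5* did not exceed 0.0801 RPKM and *Pecam1* did not exceed 0.269.

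*Angpt1* (NM_009640, mm9 chromosome 15 from 42256273 to 42508523, minus strand) was measured in WT cells at 2.88 RPKM at D0, 1.54 at D2, and 13.1 at D7, and in K36M cells at 0.210, 0.392, and 4.14. In the DMSO libraries with ectopic PPARγ it stood at 2.56 RPKM for WT and 0.222 for K36M, and in the Rosi libraries at 6.14 for WT and 0.155 for K36M. Ctrl cells had 0.596 at D0 and 0.718 at D2, and *Nsd2* KD cells 0.0985 and 0.0278, the last from 2 reads. Every K36M library lay below the WT library of the same state, for the Rosi pair because that pair chose the gene. Both *Nsd2* KD libraries lay below Ctrl, where the level was itself under 1 RPKM. Its exons overlap a long noncoding RNA gene on the opposite strand, *Gm17473*, and the library method does not mark strand, so reads of this pair cannot be told apart. *Angpt2* and *Angptl2* lie opposite the genes *Mcph1* and *Ralgps1*, without overlap of exons.

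*Angpt2* (NM_007426, chromosome 8 from 18690263 to 18741562, minus strand) was at 1.91, 0.571, and 12.7 RPKM in WT cells at D0, D2, and D7, and at 0.793, 2.87, and 4.99 in K36M cells. With PPARγ, WT cells had 0.632 and 0.855 RPKM (DMSO, then Rosi, an order kept for the other genes) and K36M cells 1.62 and 0.1596. In the third experiment Ctrl cells had 3.37 and 0.842 and *Nsd2* KD cells 0.881 and 0.435. The highest value, as for *Angpt1*, was in WT cells at D7. *Angpt4* (NM_009641, chromosome 2 from 151736943 to 151771073, plus strand), a further Tek ligand, was at 1.89, 0.0342, and 0.245 RPKM in WT cells and at 2.99, 0.782, and 3.75 in K36M cells over the same days. It was highest with PPARγ, where WT cells had 3.06 and 8.10 and K36M cells 7.38 and 2.53, and low in Ctrl (0.265 and 0.0324) and *Nsd2* KD cells (0.225 and 0.0370). Its values below 0.3 RPKM rest on 1 to 8 reads.

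The receptor gene *Tek* (NM_013690, chromosome 4 from 94405980 to 94541667, plus strand) was at 0.563, 0.0225, and 0.758 RPKM in WT cells at D0, D2, and D7 and at 0.508, 0.137, and 2.08 in K36M cells. Among the PPARγ libraries, WT cells had 0.0889 and 0.182 and K36M cells 0.194 and 0.221, and it was at most 0.141 in Ctrl and *Nsd2* KD cells. These levels stand for 1 to 118 reads, so its ratios have wide intervals.

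*Angptl2* (NM_011923, chromosome 2 from 33071589 to 33103237, plus strand), which codes for a secreted protein linked to inflammation of fat tissue, was at 33.3, 26.2, and 52.2 RPKM in WT cells and at 52.5, 29.1, and 101.6 in K36M cells. With PPARγ, WT cells had 25.3 and 21.0 and K36M cells 46.4 and 14.4, and the level was 24.9 and 16.9 in Ctrl cells, and at 33.6 and 3.63 in *Nsd2* KD cells. The *Nsd2* KD library at D2 stood apart as the lowest of all 14. *Angptl4* (NM_020581, chromosome 17 from 33910695 to 33918520, minus strand) was at 21.0, 198, and 24.0 RPKM in WT cells and at 12.4, 181, and 29.6 in K36M cells. With PPARγ, Rosi took it from 42.7 to 399.7 RPKM (WT) and from 56.5 to 611.5 (K36M), and between D0 and D2 it went from 9.10 to 141.5 in Ctrl cells and from 30.6 to 49.7 in *Nsd2* KD cells. The D2 and Rosi libraries held its high values, except in *Nsd2* KD cells.

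*Vegfa* (NM_001025257, the highest of 6 transcripts, chromosome 17 from 46153942 to 46169326, minus strand) was at 175.9, 174.6, and 99.4 RPKM in WT cells and at 110.6, 211.7, and 64.3 in K36M cells. With PPARγ, WT cells had 52.1 and 62.3 and K36M cells 36.4 and 81.8, and the level was 55.0 and 110.5 in Ctrl cells, and at 53.7 and 206.2 in *Nsd2* KD cells. Its range over the 14 libraries, 5.82-fold, was the smallest of the 10 genes. *Vegfb* (NM_001185164, chromosome 19 from 7056963 to 7062141, minus strand), whose product acts on fatty acid uptake more than on sprouting, was at 37.7, 14.2, and 49.6 RPKM in WT cells and at 32.8, 18.7, and 60.8 in K36M cells. In PPARγ cells the values were 27.4 and 54.9 for WT and 24.4 and 36.2 for K36M, and the level was 26.2 and 15.0 in Ctrl cells and 36.1 and 9.68 in *Nsd2* KD cells. The D2 libraries were the low ones in all 4 populations taken to D2.

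Of the lymphatic factors, *Vegfc* was low at D2 in all 4 populations and *Figf* in all but K36M cells. *Vegfc* (NM_009506, chromosome 8 from 55162886 to 55271808, plus strand) was at 5.79, 1.75, and 9.26 RPKM in WT cells and at 5.35, 1.99, and 10.4 in K36M cells over the days. With PPARγ, WT cells had 2.69 and 2.02 and K36M cells 4.43 and 3.44. Its highest value was 19.1 in *Nsd2* KD cells at D0, against 1.81 there at D2 and 4.74 and 1.27 in Ctrl cells. *Figf* (NM_010216, chromosome X from 160811310 to 160840582, plus strand) was at 41.1, 2.01, and 62.2 RPKM in WT cells and at 12.5, 21.4, and 62.7 in K36M cells. With PPARγ, WT cells had 17.7 and 16.1 and K36M cells 13.6 and 5.43, and the level was 15.6 and 4.496 in Ctrl cells and 12.4 and 0.513 in *Nsd2* KD cells. WT and K36M cells reached the same *Figf* level at D7, but at D2 the K36M library was above and the WT library below its own D0 level.

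**Figure D1:**
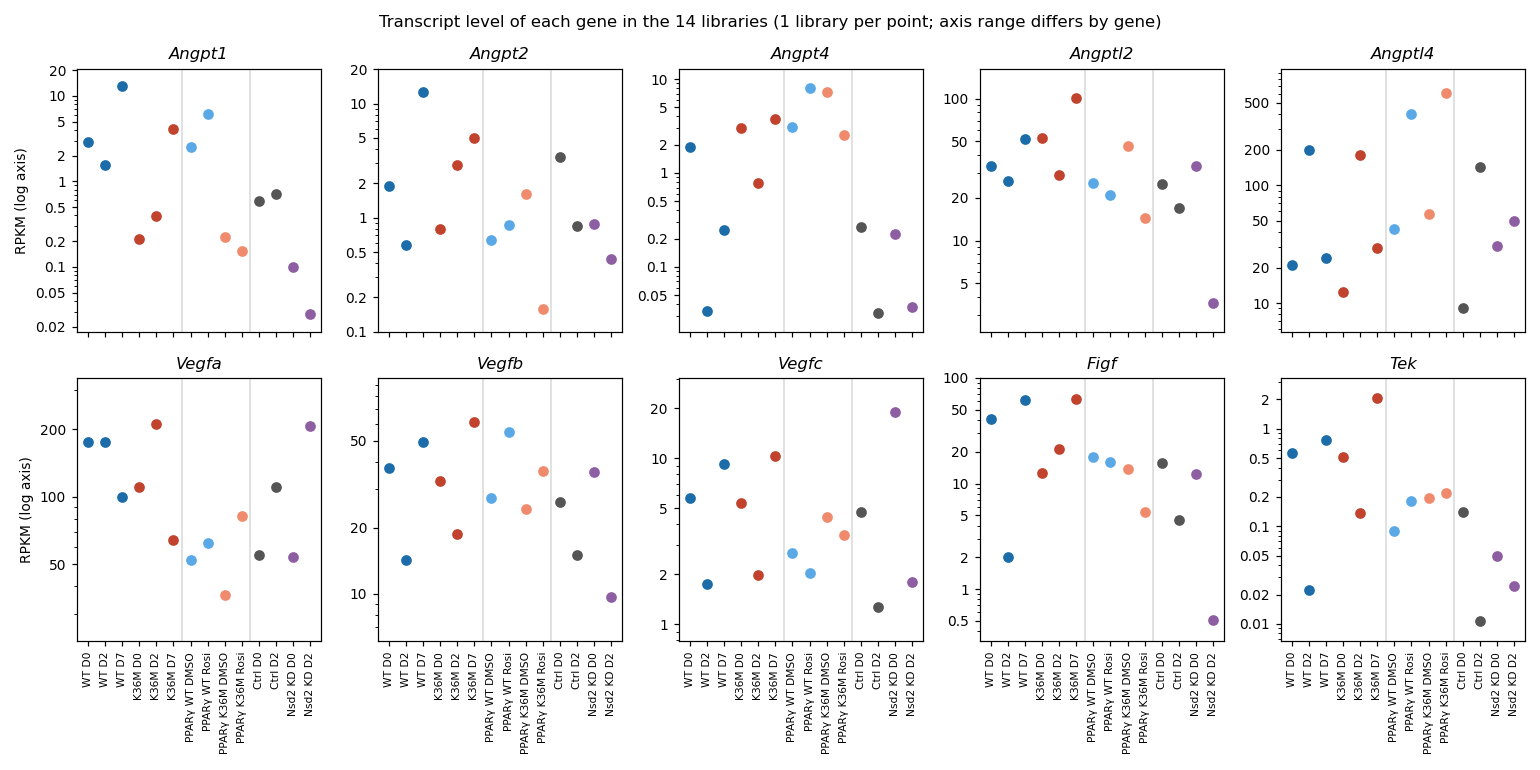
RPKM on a log axis (range set for each gene) of the 10 genes in the 14 libraries, 1 point per library; dark blue and red are WT and K36M cells over adipogenesis, light blue and orange the same with ectopic PPARγ, gray Ctrl, and purple *Nsd2* KD. *Angpt1* spans 470.1-fold between *Nsd2* KD cells at D2 and WT cells at D7, and *Vegfa* spans 5.82-fold.

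Promoters are shown for *Vegfb*, *Vegfc*, and *Figf*, which fell from D0 to D2 and rose by D7 in WT cells, and for *Angpt4*, which fell and was at 1 and 5 reads at D2 and D7, to set beside the responses to the induction medium and to Rosi. RefSeq gave a promoter for 7 of the 10 genes, from 250 bases before the transcription start to 50 after it (table of build GRCm38.p6), and each was placed on mm9 by an exact match, single on its chromosome. *Angpt1*, *Angpt2*, and *Angptl4* have no entry in that table, and the window of *Tek*, which fell to 2 reads at D2 and rose, is not printed. Letters are 5′ to 3′ on the gene's strand, and capitals mark matches, on either strand, to the PPAR half-site AGGTCA, the C/EBP motif TTGCNNAA, and the hypoxia elements ACGTG and GCGTG.
Angpt4: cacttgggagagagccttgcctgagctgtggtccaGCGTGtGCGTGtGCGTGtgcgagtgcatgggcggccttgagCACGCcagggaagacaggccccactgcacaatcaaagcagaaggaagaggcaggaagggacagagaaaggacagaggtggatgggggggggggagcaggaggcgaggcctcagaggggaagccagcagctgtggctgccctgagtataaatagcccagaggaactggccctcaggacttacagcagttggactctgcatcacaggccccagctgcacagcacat
Vegfb: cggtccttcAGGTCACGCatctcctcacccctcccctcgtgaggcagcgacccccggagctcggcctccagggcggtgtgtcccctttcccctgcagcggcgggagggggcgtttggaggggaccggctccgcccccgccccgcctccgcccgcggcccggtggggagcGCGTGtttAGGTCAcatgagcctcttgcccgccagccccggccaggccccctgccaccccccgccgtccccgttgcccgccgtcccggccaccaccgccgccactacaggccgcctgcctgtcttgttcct
Vegfc: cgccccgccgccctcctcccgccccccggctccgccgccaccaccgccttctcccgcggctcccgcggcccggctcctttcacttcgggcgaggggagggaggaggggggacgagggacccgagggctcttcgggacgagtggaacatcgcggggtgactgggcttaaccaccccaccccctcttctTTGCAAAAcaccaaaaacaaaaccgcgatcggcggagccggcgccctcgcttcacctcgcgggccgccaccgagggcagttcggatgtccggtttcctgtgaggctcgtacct
Figf: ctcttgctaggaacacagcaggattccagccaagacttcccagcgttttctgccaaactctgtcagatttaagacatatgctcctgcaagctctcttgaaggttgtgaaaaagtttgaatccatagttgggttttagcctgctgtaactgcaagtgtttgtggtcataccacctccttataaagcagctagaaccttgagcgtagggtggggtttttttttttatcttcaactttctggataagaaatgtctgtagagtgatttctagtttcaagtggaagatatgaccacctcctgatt
The windows are chr2:151736693-151736992 (plus strand), chr19:7062092-7062391 (minus strand), chr8:55162636-55162935 (plus strand), and chrX:160811204-160811503 (plus strand). *Vegfb* held the half-site at bases 241 and 73 before the start, the first sharing bases with a hypoxia element, and 16.3% of all 32851 promoters of that length hold it. *Vegfc* held the C/EBP motif, found in 10.8% of promoters, and *Angpt4* held GCGTG or its complement at 4 places, where 32.4% of promoters have at least 1. *Figf* had none of these letters. The full PPAR element (DR1, a pair of half-sites 1 base apart) and the glucocorticoid element were in none of the 8 windows of the 7 genes and in 0.0396% and 0.475% of all promoters. A match is only a description of these letters. The windows of *Vegfb* and *Vegfc* were rich in GC (75.3% and 70.3%, against a median of 52.7%), and that of *Figf* was poor (42.0%).

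From D0 to D2, 6 of the 10 genes fell over 2-fold in WT cells and *Angptl4* rose, while *Vegfa*, *Angpt1*, and *Angptl2* stayed within 2-fold. Of the 10 genes, 1 was up-regulated (*Angptl4*, 9.44-fold) and 6 were down-regulated (*Angpt2*, *Angpt4*, *Vegfb*, *Vegfc*, *Figf*, and *Tek*), and among all genes with reads in either library 13.6% were up-regulated and 25.2% down-regulated. The median log2 ratio was -1.57 over the 10 genes and -0.04 over all genes above 0 in both libraries. *Figf* fell 20.4-fold (log2 ratio -4.35, counting interval -4.71 to -4.01), *Angpt2* 3.34-fold, *Vegfc* 3.30-fold, and *Vegfb* 2.66-fold. *Vegfa* was at the same level on both days (log2 ratio -0.01, interval -0.05 to 0.03). *Angpt4* and *Tek* went down to 1 and 2 reads, with log2 ratios of -5.79 (interval -11.12 to -3.26) and -4.64 (interval -7.72 to -2.72). In bulk samples, fewer cells of a type and less RNA per cell cannot be told apart. All 6 preadipocyte markers also fell over 2-fold in WT cells (summed level 836 to 99.2 RPKM, mostly *Col1a1*, 560.2 to 52.1). Of 8 mural markers 4 fell and 2 rose (618 to 45.8), or 4 and 1 at 1 RPKM or more. The fall of their sum was mostly that of *Acta2* (528.9 to 7.73 RPKM), while *Mcam* rose from 2.47 to 18.55 RPKM. The part of both lists in the result was not tested.

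K36M cells were set beside WT cells in their change from D0 to D2. Counting intervals of the difference between the 2 changes left out 0 for all of the 10 genes except *Vegfc*. They cover read sampling only, so at high read counts they leave out 0 for small differences too. The share of all genes with such intervals was not computed. In K36M cells, 2 of the 10 genes were up-regulated (*Angpt2*, 3.62-fold, and *Angptl4*, 14.6-fold) and 3 down-regulated (*Angpt4*, *Vegfc*, and *Tek*), near the 16.5% and 19.6% of all genes. *Figf* was 1.72-fold higher at D2 (log2 ratio 0.78, interval 0.60 to 0.97), where WT cells had the 20.4-fold fall. Its K36M minus WT difference in log2 ratio was 5.13 (interval 4.74 to 5.54), and that of *Angpt2* was 3.60 (interval 2.73 to 4.47). It was 1.80 for *Angpt1* (interval 0.73 to 2.88) and 0.95 for *Vegfa* (interval 0.89 to 1.01). For *Angpt4* and *Tek*, at 1 and 2 WT reads at D2, it was 3.85 (interval 1.07 to 9.27) and 2.75 (interval 0.32 to 6.08). The other differences were -0.51 for *Angptl2*, 0.63 for *Angptl4*, 0.60 for *Vegfb*, and 0.30 for *Vegfc* (interval -0.35 to 0.94). The preadipocyte markers moved less in K36M cells too, with 1 of 6 down-regulated (354 to 277 RPKM, mostly *Col1a1*, 222.9 to 146.9). Their part was not tested.

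Ctrl cells, a second control population, resembled WT cells in part. From D0 to D2, 2 of the 10 genes were up-regulated (*Angptl4*, 15.6-fold, and *Vegfa*, 2.01-fold) and 5 down-regulated (*Angpt2*, *Angpt4*, *Vegfc*, *Figf*, and *Tek*), beside 17.3% and 23.4% of all genes. *Figf* fell 3.47-fold, less than in WT cells. These controls were not alike at the start: at D0, WT cells exceeded Ctrl cells 7.16-fold in *Angpt4*, 4.83-fold in *Angpt1*, 3.98-fold in *Tek*, 3.20-fold in *Vegfa*, 2.63-fold in *Figf*, and 2.31-fold in *Angptl4*, and lay below them in *Angpt2* (1.91 and 3.37 RPKM). In *Nsd2* KD cells, 1 gene was up-regulated (*Vegfa*, 3.84-fold) and 8 were down-regulated, all except *Vegfa* and *Angptl4*, beside 16.9% and 24.5% of all genes, with medians of -1.86 over the 10 genes and -0.02 over all genes. *Angptl2* fell 9.25-fold there and 1.47-fold in Ctrl cells, a difference of -2.65 in log2 ratio (interval -2.89 to -2.42). *Angptl4* at D2 was 1.62-fold above D0 in *Nsd2* KD cells and 15.6-fold in Ctrl cells (difference -3.26, interval -3.46 to -3.06). The falls of *Angpt1*, *Angpt4*, and *Tek* in *Nsd2* KD cells started from 4 to 7 reads and had intervals that reached above 0.

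**Figure D2:**
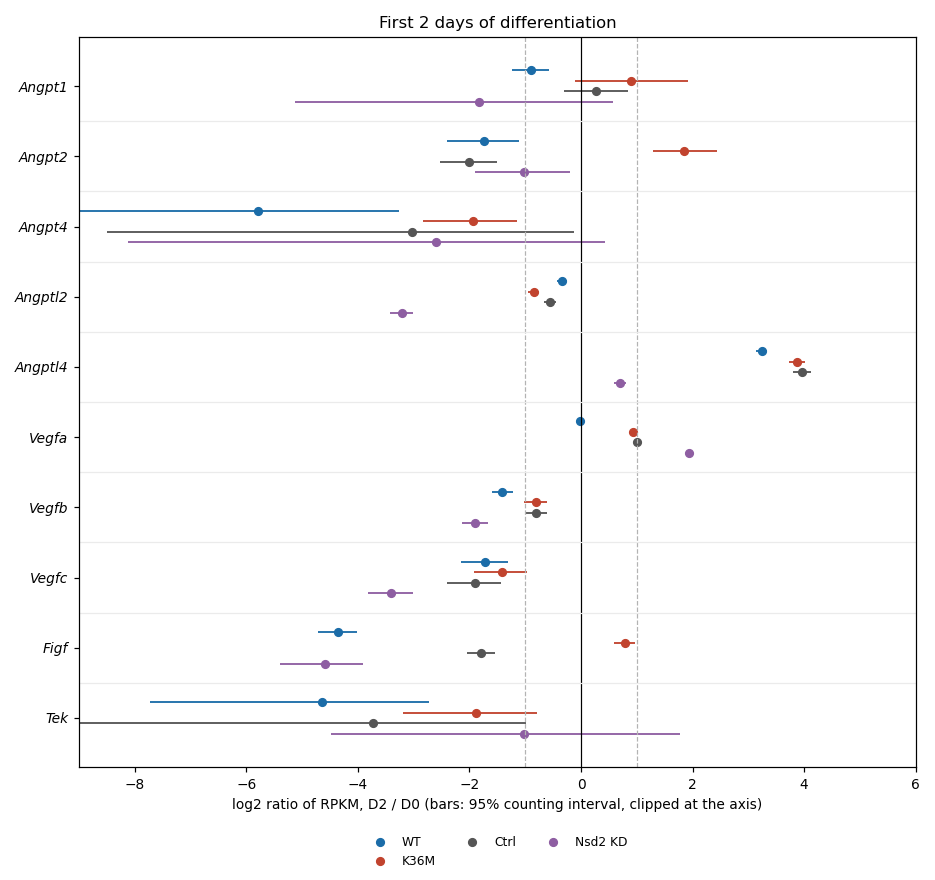
Log2 ratio of RPKM at D2 over D0 for the 10 genes in WT (blue), K36M (red), Ctrl (gray), and *Nsd2* KD cells (purple), 1 library per condition, with 95% counting intervals as bars clipped at the axis and dashed lines at 2-fold. *Angptl4* is above 2-fold in WT, K36M, and Ctrl cells but at 0.70 in *Nsd2* KD cells, and *Figf* is at -4.35 in WT but at 0.78 in K36M cells.

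From D2 to D7, 7 of the 10 genes were higher over 2-fold in both WT and K36M cells, the only populations taken to D7. In WT cells the 7 were *Angpt1*, *Angpt2*, *Angpt4*, *Vegfb*, *Vegfc*, *Figf*, and *Tek*, of which *Angpt4* went from 1 to 5 reads with an interval of -0.32 to 8.41 and stayed below its D0 level. *Angptl4* alone was down-regulated (8.26-fold). These counts stand beside 22.4% up and 12.2% down among all genes, and the medians were 2.62 over the 10 genes and 0.09 over all genes. *Figf* rose 31.0-fold, *Angpt2* 22.2-fold, *Angpt1* 8.47-fold, and *Vegfc* 5.28-fold. In K36M cells 7 were again up-regulated and 2 down-regulated (*Angptl4*, 6.12-fold, and *Vegfa*, 3.29-fold), beside 21.5% and 14.9% of all genes. The up-regulated 7 differed by 1 gene, with *Angpt2* in WT cells (1.74-fold in K36M cells) and *Angptl2* in K36M cells (1.99-fold in WT cells). *Angpt1* rose 10.6-fold in K36M cells from its lower start, and its rise differed from that in WT cells by 0.32 (interval -0.42 to 1.12). *Vegfb* and *Vegfc* rose over 2-fold in both, with differences of -0.10 (interval -0.38 to 0.18) and -0.02 (interval -0.65 to 0.62). *Figf* rose 2.93-fold in K36M cells (difference from WT cells -3.40, interval -3.79 to -3.03). The difference was -3.67 for *Angpt2* (interval -4.40 to -2.97), -0.91 for *Vegfa* (interval -0.99 to -0.83), 0.81 for *Angptl2* (interval 0.68 to 0.94), and 0.43 for *Angptl4* (interval 0.26 to 0.60). For *Angpt4* and *Tek* the intervals included 0. All 6 preadipocyte markers rose over 2-fold in both populations, and their part in these rises was not tested.

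K36M cells were next compared with WT cells at a fixed day, where K36M and other differences between the 2 cell populations cannot be told apart. At D0, none of the 10 was up-regulated and 3 were down-regulated, *Angpt1* 13.7-fold (log2 ratio -3.78, interval -4.58 to -3.07), *Figf* 3.30-fold, and *Angpt2* 2.40-fold, where 14.8% of all genes were up-regulated and 12.0% down-regulated. *Vegfb*, *Vegfc*, and *Tek* lay within 1.15-fold of WT cells, the last with an interval of -0.74 to 0.44. At D2, 4 were up-regulated in K36M cells (*Figf*, 10.7-fold; *Angpt2*, 5.03-fold; *Angpt4* and *Tek*, from 1 and 2 WT reads) and 1 was down-regulated (*Angpt1*, 3.94-fold), beside 22.2% and 9.90% of all genes. At D7, 2 were up-regulated (*Angpt4*, 15.3-fold, and *Tek*, 2.74-fold) and 2 down-regulated (*Angpt1*, 3.16-fold, and *Angpt2*, 2.53-fold), counts close to the 19.7% and 13.2% of all genes. Over all genes the median log2 ratio was 0.11, 0.11, and 0.13 on the 3 days, and over the 10 genes it was -0.44, 0.34, and 0.23. *Angpt1* was thus lower in K36M cells on all 3 days, whereas *Figf* and *Angpt2* changed sign between D0 and D2.

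*Vegfa* and *Angptl4* stayed within 2-fold of WT cells at each of these days. *Vegfa* in K36M cells was 1.59-fold lower at D0, 1.21-fold higher at D2, and 1.55-fold lower at D7, and *Angptl4* was 1.70-fold lower, 1.10-fold lower, and 1.23-fold higher. The adipocyte markers, for comparison, had 3, 6, and 9 of 10 down-regulated in K36M cells at D0, D2, and D7, beside 12.0%, 9.90%, and 13.2% of all genes. Of these 10 markers, 8, 9, and 9 had reads in either library. Among markers at 1 RPKM or more in either library the down-regulated counts were 3, 6, and 8. *Lpl*, the lipase that Angptl4 blocks, was at 2145 RPKM in WT and 470.3 in K36M cells at D2, a log2 ratio of -2.19, where that of *Angptl4* was -0.13 (interval -0.19 to -0.08).

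**Figure D3:**
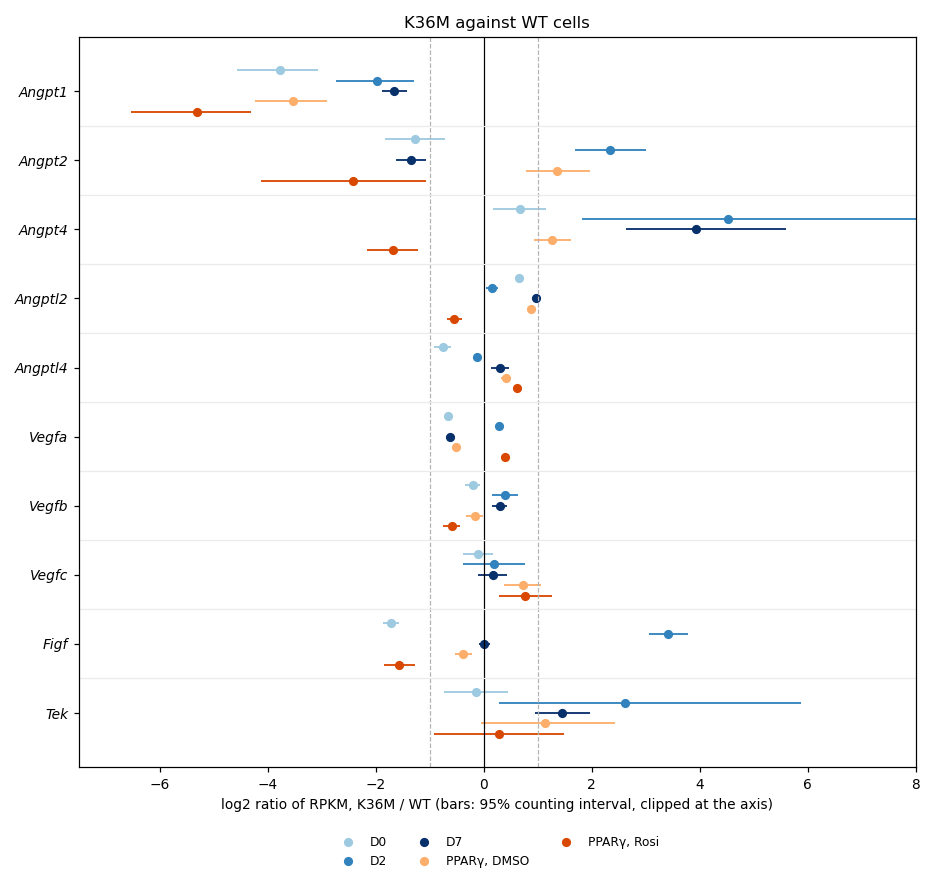
Log2 ratio of K36M over WT RPKM for the 10 genes at D0, D2, and D7 (blues) and with PPARγ and DMSO or Rosi (oranges), 1 library per condition, with 95% counting intervals as bars clipped at the axis and dashed lines at 2-fold. *Angpt1* lies left of -1 in all 5 states, of which the Rosi state chose it, while *Angpt2* lies on both sides.

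Rosi was compared with DMSO to see the response to a PPARγ ligand. In WT cells 5 of the 10 genes were up-regulated and 0 down-regulated, beside 17.0% and 16.2% of all genes, with medians of 0.72 and 0.09. The 5 include *Angpt1*, whose WT Rosi library also entered the contrast that chose it, so this count is not free of that choice. *Angptl4* rose 9.35-fold (log2 ratio 3.22, interval 3.15 to 3.30), *Angpt4* 2.64-fold, and *Angpt1* 2.40-fold. *Vegfb* stood at the threshold (2.00-fold, interval in log2 0.86 to 1.14), and *Tek*, at 9 and 14 reads, had an interval of -0.28 to 2.42. Rescaling the libraries by the median ratio of all genes put *Vegfb* and *Tek* under 2-fold. In K36M cells 2 were up-regulated (*Angptl4*, 10.8-fold, and *Vegfa*, 2.25-fold) and 4 down-regulated (*Angpt2*, 10.2-fold; *Angptl2*, 3.23-fold; *Angpt4*, 2.92-fold; *Figf*, 2.51-fold), beside 18.3% and 15.0% of all genes. Of 8 mural markers, WT cells had 1 up-regulated and 1 down-regulated. The K36M counts were 0 and 5, or 0 and 3 at 1 RPKM or more. The summed level of these markers with DMSO and Rosi was 1440 and 366 RPKM in WT and 1020 and 311 in K36M cells. It was mostly that of *Acta2* (1372 and 305.6 in WT cells), and the part of these markers was not tested.

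*Angptl4* rose over 2-fold with Rosi in both populations, whereas *Angpt4* ran in opposite directions. The log2 rise of *Angptl4* was 0.21 larger in K36M than in WT cells (interval 0.12 to 0.30), and that of *Vegfa* was 0.91 larger (interval 0.81 to 1.01). *Angpt4* went up in WT and down in K36M cells, a difference of -2.95 (interval -3.53 to -2.37), and *Angpt2* differed by -3.79 (interval -5.58 to -2.25). For *Vegfc* the difference was 0.05 (interval -0.56 to 0.66).

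K36M cells with ectopic PPARγ were also compared with WT cells in the DMSO libraries. There 3 of the 10 genes were higher over 2-fold (*Angpt2*, 2.57-fold; *Angpt4*, 2.41-fold; *Tek*, with an interval of -0.05 to 2.43) and 1 lower (*Angpt1*, 11.6-fold, log2 ratio -3.53, interval -4.23 to -2.90), counts near the 23.9% and 8.31% of all genes. With Rosi, 0 were higher and 4 lower, beside 28.4% and 12.6% of all genes. The 4 include *Angpt1*, which this contrast chose, so its call was fixed in advance and the count is only a description. *Angpt1* was 39.6-fold lower in K36M cells there, at 8 reads against 414, *Angpt2* 5.36-fold, *Angpt4* 3.20-fold, and *Figf* 2.96-fold. *Angptl4* was 1.53-fold higher. The DMSO and Rosi contrasts use different libraries of the same 2 cell populations.

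**Figure D4:**
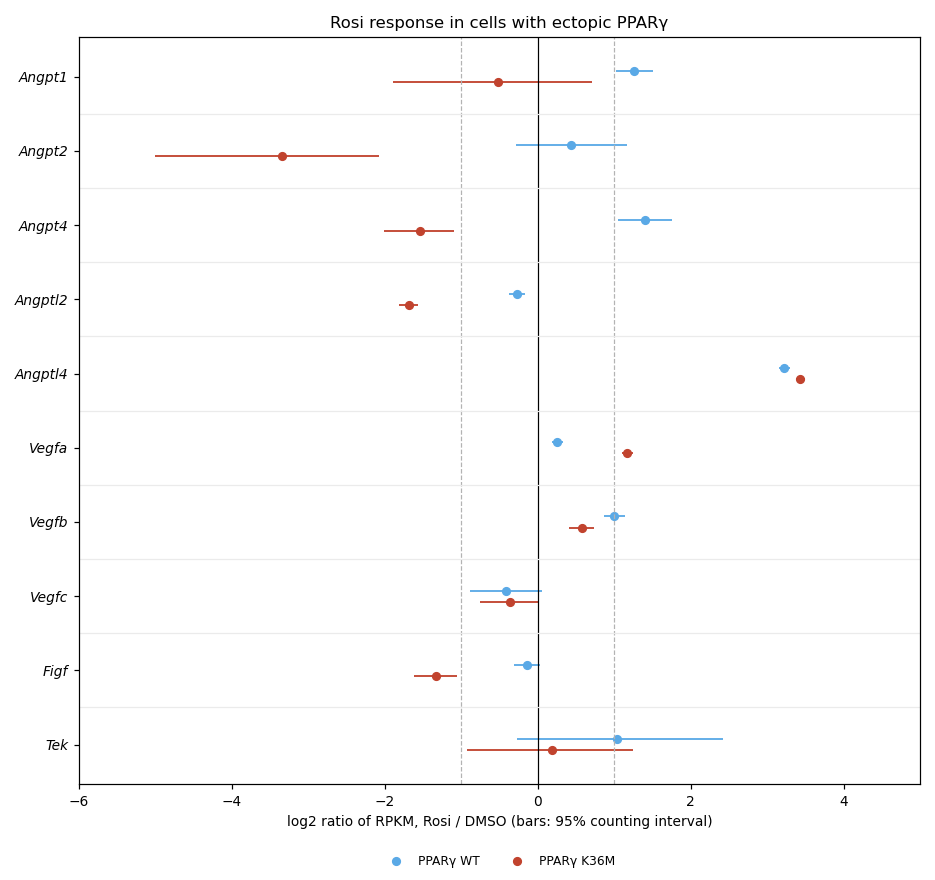
Log2 ratio of Rosi over DMSO RPKM for the 10 genes in WT (light blue) and K36M cells (red) with ectopic PPARγ, 1 library per condition, with 95% counting intervals as bars and dashed lines at 2-fold. *Angptl4* is at 3.22 and 3.43, and *Angpt4* at 1.40 and -1.54.

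*Nsd2* KD was compared with Ctrl at each day. At D0, 2 of the 10 genes were higher (*Vegfc*, 4.03-fold, log2 interval 1.77 to 2.26, and *Angptl4*, 3.36-fold) and 3 lower (*Angpt1*, 6.05-fold; *Angpt2*, 3.83-fold; *Tek*, from 13 to 4 reads), beside 13.5% and 18.1% of all genes. *Vegfa* differed by 1.02-fold. At D2, 1 was counted as higher and 4 as lower, beside 12.0% and 18.5% of all genes, and the medians were -0.79 over the 10 genes and -0.04 over all genes. The higher 1 was *Tek* at 2 reads against 1, too few for a ratio. The lower 4 were *Angpt1* (59 reads against 2, log2 ratio -4.69, interval -7.77 to -2.77), *Figf* (8.76-fold), *Angptl2* (4.66-fold), and *Angptl4* (2.85-fold). *Vegfa* was 1.87-fold higher. *Angptl4* was thus above Ctrl at D0 and below it at D2. The adipocyte markers had 9 of 10 down-regulated in *Nsd2* KD cells at D2 and 1 up-regulated (summed 2540 and 163 RPKM). At 1 RPKM or more in either library they had 8 down and 0 up. The preadipocyte markers had 4 of 6 down and 1 up (121 and 45.0 RPKM). The 1 up was *Dlk1*, at 3.51 RPKM in Ctrl and 27.9 in *Nsd2* KD cells, while *Col1a1*, most of the Ctrl sum, was at 89.9 and 13.7. The part of both lists was not tested.

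**Figure D5:**
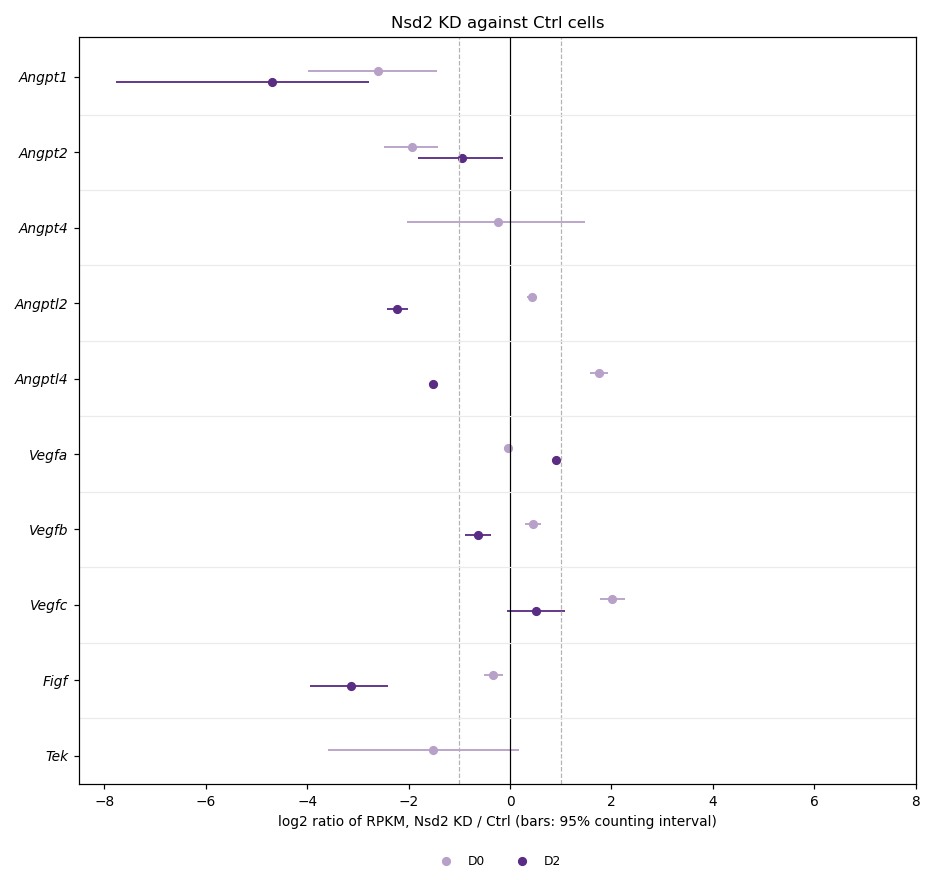
Log2 ratio of *Nsd2* KD over Ctrl RPKM at D0 (light purple) and D2 (dark purple) for 10 genes, 1 library per condition, with 95% counting intervals as bars and dashed lines at 2-fold; *Angpt4* and *Tek* at D2 are left out, at no more than 3 reads in both libraries. *Angptl4* is at 1.75 at D0 and -1.51 at D2, and *Angpt1* is lower at both days.

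The other genes of the pathway were read as lists. Among 10 receptors and modulators, which bind these ligands or tune their receptors, only *Nrp1*, *Nrp2*, *Itgav*, *Itgb1*, and *Itga5* reached 1 RPKM in most libraries. Between D0 and D2, WT cells had 0 of them up-regulated and 5 down-regulated, beside 13.6% and 25.2% of all genes, and K36M cells 3 and 3, beside 16.5% and 19.6%. Among those at 1 RPKM or more the counts were 0 and 1 for WT, and 2 and 1 for K36M cells, where the VEGF co-receptor *Nrp1* went from 7.61 to 23.9 RPKM. In K36M cells at D7, 4 of the 10 were higher than in WT cells and 0 lower, beside 19.7% and 13.2% of all genes, with *Flt1*, a Vegfa receptor, at 2.96 against 0.323 RPKM and *Nrp2*, a Vegfc co-receptor, at 40.9 against 7.12. *Nsd2* KD cells at D2 had 0 higher and 4 lower than Ctrl (2 lower at 1 RPKM or more), beside 12.0% and 18.5% of all genes, with *Nrp1* at 4.42 against 17.8 RPKM.

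Of 21 further vascular ligands, WT cells had 13 down-regulated and 2 up-regulated between D0 and D2 (median log2 ratio -1.66), beside 25.2% and 13.6% of all genes. The counts were 15 and 1 in Ctrl cells, beside 23.4% and 17.3%, and 13 and 3 in *Nsd2* KD cells, beside 24.5% and 16.9%. In K36M cells they were 4 and 3 (median -0.34), near the 19.6% and 16.5% of all genes. Apelin (*Apln*) was higher at D2, with 13.9 and 33.2 RPKM at D0 and D2 in WT cells against 2.02 and 19.4 in K36M. Adrenomedullin (*Adm*), a vasodilator, went from 82.6 to 0.493 RPKM in WT cells and from 10.9 to 0.751 in K36M cells. The chemokine *Cxcl12* was at 283.9 RPKM in WT and 12.4 in K36M cells at D0. Of other family members, *Angptl1* and *Angptl7* were below 1 RPKM in all 14 libraries, and *Pgf* did not exceed 3.74 RPKM. *Angptl6* lay between 0.404 and 26.3 RPKM and rose with Rosi from 0.970 to 5.72 RPKM in WT cells and from 2.07 to 26.0 in K36M cells, and *Angptl8*, a partner of lipase inhibition, rose from 1 to 97 reads between D2 and D7 in WT cells.

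Of 9 inhibitors of vessel growth, WT cells had 5 down-regulated and 1 up-regulated between D0 and D2, beside 25.2% and 13.6% of all genes, and K36M cells 2 and 1, near the 19.6% and 16.5% of all genes. The thrombospondin *Thbs1* went from 365.6 to 11.3 RPKM in WT cells and the median log2 ratio of the list was -1.47. Of 8 genes of oxygen sensing, WT cells had 0 up-regulated and 2 down-regulated, beside the same shares of all genes. The counts were 2 and 1 in K36M cells, 1 and 0 in Ctrl cells (17.3% and 23.4% of all genes), and 4 and 2 in *Nsd2* KD cells (16.9% and 24.5%). *Hif1a* RNA fell from 197.2 to 62.2 RPKM in WT cells while *Vegfa*, a known target of its product, was 1.01-fold lower. In *Nsd2* KD cells *Hif1a* went from 54.9 to 119.5 RPKM and *Vegfa* rose 3.84-fold. The protein was not measured, and a link was not tested. In Ctrl cells *Hif1a* was at 49.7 and 54.8 RPKM with *Vegfa* 2.01-fold higher, and in K36M cells at 58.5 and 61.2 RPKM with *Vegfa* 1.91-fold higher. Of 11 hypoxia targets, 0 were up-regulated and 4 down-regulated in WT cells from D0 to D2, beside 13.6% and 25.2% of all genes, and 2 and 2 in *Nsd2* KD cells, beside 16.9% and 24.5%. The lists and the 10 genes share libraries.

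Over the 14 libraries, the genes closest to *Angpt1* in pattern, by Pearson correlation of log2(RPKM + 1) among 10520 genes that reached 5 RPKM in a library, were *Chpt1* (r = 0.902), *Cfd* (0.888), *Plscr4* (0.886), *Arsb* (0.869), and *Tent5a* (0.861). For *Angptl4* they were *Ech1* (0.90), *Coq3* (0.855), *Lpcat3* (0.851), *Fgfrl1* (0.823), and *Commd3* (0.821), and for *Vegfa* the closest 3 were *Uri1* (0.955), *Cln8* (0.940), and *Mapk8* (0.936). These are descriptions over 14 points that share cell line and depth. With 0.1 added to RPKM in place of 1, *Cfd* and *Plscr4* left the closest genes of *Angpt1*, and *Plpp3* and *Cgnl1* entered.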

How the data were processed

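RNA-Seq from 14 libraries of mouse cells was used, and the 20 ChIP-Seq samples were not analysed here. The authors deposited RPKM for 29082 RefSeq transcripts per library, per the file headers. The submitters' processing notes name CASAVA 1.8.2 and mm9, and the aligner and counter of the RNA-Seq reads are not given in the sources used here. RefSeq symbols matched 28436 transcripts (97.8%), and of a gene's transcripts the one highest on average over the libraries was used. Positions are from GENCODE M1. Since an RPKM steps by the value of 1 read, whole reads were recovered for all 26946 transcripts above 0 in at least 2 libraries (100%), with library totals within 1.8e-06 of whole numbers. Reads sharing a common factor in every library could be understated.

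Ratios are of deposited RPKM with no pseudocount, for genes above 0 in either library. Intervals are at 95% (Clopper-Pearson, on how the reads of a library pair divide between them), computed with SciPy 1.17.1. They were tried only on reads simulated with the sampling they assume, without spread between libraries or cell pools. With 1 library per condition, 15 comparisons were described and none was tested, and replicate labels pair nothing. Alternatives were pseudocounts of 0.1 and 1, RPKM of at least 1, median-ratio rescaling, summed transcripts, and intervals excluding 1. From each list of pathway genes at most 4 with the largest ratio at 1 RPKM or more were eligible to be named per comparison. The members, lists, and markers were chosen with earlier results of these data known. *Cd68* and *Pref1* of the marker lists matched no symbol. The macrophage markers summed to 0.406 to 8.28 RPKM. Values of some genes that the naming rule selects are not reported here.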

Additional observations from a re-analysis of the deposited data

Results flagged for a closer look

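A few responses ran in opposite directions in cell populations or states that were compared, with counting intervals on either side of no change. With 1 library per condition, none of these differences was tested against replicate spread. From D0 to D2, *Figf* differed by 5.135 in log2 ratio between K36M and WT cells and *Angpt2* by 3.595. The same differences appear when K36M over WT is compared between D2 and D0 (5.135 for *Figf*, 3.595 for *Angpt2*), since the same 4 libraries enter. *Angpt2* then went back, with K36M over WT at D7 minus D2 at -3.669. With Rosi, the response of *Angpt4* differed by -2.946 between K36M and WT cells, and K36M over WT with Rosi minus DMSO was -2.946 for *Angpt4* and -3.784 for *Angpt2*. *Angptl4* in *Nsd2* KD over Ctrl cells was -3.26 from D0 to D2, from higher to lower.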

How the results depend on the processing

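The number of the 10 genes over 2-fold was recomputed in 15 comparisons. A pseudocount of 0.1, summed transcripts, and a counting interval excluding 1 left each count within 1.5 times. A pseudocount of 1 lowered it for K36M against WT at D2 (from 5 to 2), Rosi in WT cells (5 to 3), K36M against WT with DMSO (4 to 2), Ctrl from D0 to D2 (7 to 4), *Nsd2* KD from D0 to D2 (9 to 5), and *Nsd2* KD against Ctrl at D0 (5 to 3) and D2 (5 to 3). Asking for 1 RPKM in either library gave 3 for K36M against WT at D2, 5 for *Nsd2* KD from D0 to D2, and 3 for *Nsd2* KD against Ctrl at D0 and at D2. These settings lower low-level genes by construction. Rescaling by the median ratio gave 3 for Rosi in WT cells, with *Vegfb* at 0.91 and *Tek* at 0.94 in log2, and put *Vegfa* in K36M cells from D0 to D2 over 2-fold (0.94 to 1.01). No ratio over 2-fold changed direction.

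No paired analysis was possible because each condition has 1 library, and leaving out a replicate was not possible either. Depth limits *Tek*, *Angpt4* outside the PPARγ libraries, and *Angpt1* in *Nsd2* KD and, less so, K36M cells. At D2, *Tek* and *Angpt4* in WT, Ctrl, and *Nsd2* KD cells and *Angpt1* in *Nsd2* KD cells stood at 1 or 2 reads. There 1 or 2 reads can decide a ratio.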
